A study of Mus musculus with 6 samples.

Results

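Titin (Ttn), desmin (Des), the muscle calpain Capn3, the calpain inhibitor calpastatin (Cast) and the myotonin kinase Dmpk were followed in soleus, a postural hindlimb muscle, of C57Bl/6 mice that had been reloaded for 1 day. The 5 genes were found by their symbols in the platform annotation, which gave 1 probe each, 5 of the 223 probes and of the 203 named genes in the table. All 6 samples formed a single group, titled wild type and numbered replicates 1 to 6, with 1 array each and 3 micrograms of total RNA from cryosections per array. The labels named no sex, age or length of unloading, and no unloaded or untouched muscle was analysed here. Nothing in the labels says whether the 6 samples were separate animals, so every spread and p-value below measures differences between these samples, which can be technical.

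Titin is a giant elastic protein that spans from the Z-disc to the M-band of the sarcomere and holds the thick filament in place. Desmin is the intermediate filament of muscle, which ties neighbouring Z-discs to each other and to the membrane and nucleus. Capn3 is a calcium-dependent protease that is anchored on titin, calpastatin is the endogenous inhibitor of the ubiquitous calpains, and desmin is one of the proteins that those calpains cut. Dmpk is a serine/threonine kinase of muscle, and a repeat expansion at the end of its gene causes myotonic dystrophy. Soleus loses mass when it is unloaded and regains it on reloading, and the scaffold and its proteases take part in that remodelling.

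The start regions of Des, Ttn and Dmpk are shown because these were the 3 genes among the 5 whose levels stayed closest to each other from array to array. They come from RefSeq on build GRCm38.p6, run 5′ to 3′ on the gene's strand, and end where the outermost annotated transcript begins. The 250 bases of Des reach the start site used in the motif search below. The 240 bases of Ttn and the 38 of Dmpk stop short of theirs. Counted from those start sites, the E-box of Ttn lay at -138 and that of Dmpk at -227. Capitals mark E-boxes, the motif bound by myogenic factors, and a MEF2 site.
Des, chr1:75360042-75360291, plus strand: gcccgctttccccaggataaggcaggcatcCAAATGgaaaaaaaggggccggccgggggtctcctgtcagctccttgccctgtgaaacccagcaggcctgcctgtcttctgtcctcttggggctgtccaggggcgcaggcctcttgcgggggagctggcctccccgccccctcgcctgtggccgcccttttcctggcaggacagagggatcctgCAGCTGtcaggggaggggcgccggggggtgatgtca
Ttn, chr2:76982558-76982797, minus strand: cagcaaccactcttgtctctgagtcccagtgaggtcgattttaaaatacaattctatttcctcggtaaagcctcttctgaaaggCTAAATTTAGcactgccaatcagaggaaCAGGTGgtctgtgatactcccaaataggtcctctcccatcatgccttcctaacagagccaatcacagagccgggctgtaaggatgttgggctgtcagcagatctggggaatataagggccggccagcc
Dmpk, chr7:19083608-19083645, plus strand: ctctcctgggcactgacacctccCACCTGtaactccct

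All 5 genes matched the RefSeq promoter table, with 9 start sites in all, and 4 motifs were searched on both strands in the 250 bases before each site. The E-box (CANNTG, which reads the same way on both strands and was counted once) occurred 2 times before Des, 1 time before Ttn and 1 time before Dmpk. It also occurred 1 time before each of the 2 starts of Capn3 and before 1 of the 4 starts of Cast, and 66.2% of the 32851 promoters in the table held at least 1. The MEF2 site occurred 1 time before Ttn and 1 time before the outer start of Capn3, against 2.92% of all promoters. Neither the TATA box (TATAAA, in 12.4% of promoters) nor the CArG box (in 1.47%) was found before any of the 9 start sites. The marked letters did not overlap each other. These matches describe the sequence only.

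The arrays differed widely in overall signal, and the muscle markers were present on all of them. Summed deposited intensity ran from 13.8 on replicate 6 to 165.3 on replicate 1, and the median of the 175 probes above 0 on all arrays ran 6.54-fold. Each array was therefore centred on that median after conversion to log2, so that 0 stands for the median probe of the array. How far the values of an array reached below 0 served as its bound on noise, and 123 genes exceeded it on all arrays. All 7 muscle fibre markers with a probe (Myh7, Myh2, Myh1, Myh4, Des, Mb and Ttn) did so and made up 10.4% to 18.2% of the summed intensity. All 5 endothelial, all 4 fibroblast and all 3 adipocyte markers with a probe also exceeded it, at 0.288% to 0.767%, 0.266% to 0.470% and 0.325% to 0.897%. The single myeloid marker, Il1b, was at or below 0 on all arrays, and markers of smooth muscle, heart and nerve had no probe. Whether the cell types or the overall signal had a part in the values below was not tested.

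Of the 30 values of the 5 genes, 0 were at or below 0, and 26 exceeded the noise bound. The 4 others all belonged to Capn3. In bulk muscle, fewer fibres and less RNA per fibre cannot be told apart. Because probes differ in how strongly they bind, the level of one gene is not set against that of another.

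**Figure D1:**
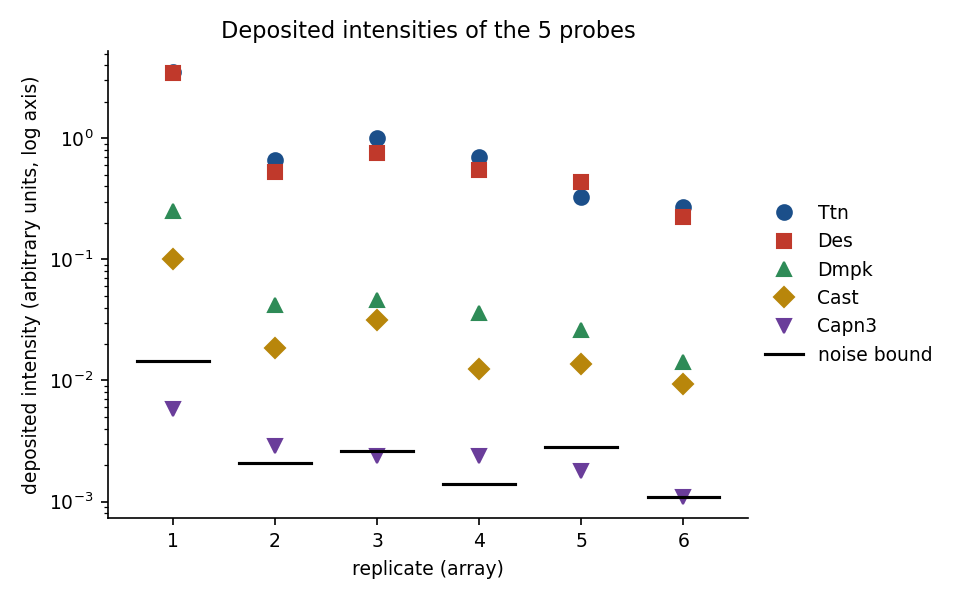
Deposited intensity of each of the 5 probes (log axis, arbitrary units) on the 6 arrays, with the noise bound of each array as a black line. Ttn, Des, Dmpk and Cast lie above the line on every array, and Capn3 lies above it on replicates 2 and 4 only.

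After median centring, desmin had the narrowest range of the 4 genes measured above the bound, whereas calpastatin had it in deposited units (10.7-fold, against 15.4-fold for desmin) and with 28S scaling (5.45-fold against 7.24-fold). Its deposited intensities were 3.45, 0.529, 0.748, 0.545, 0.436 and 0.224 on replicates 1 to 6, between 156 and 389 times the noise bound. After median centring these became 5.74, 5.14, 5.60, 5.06, 4.69 and 4.50, a mean of 5.12 ± 0.49 (SD, n = 6) and a 2.36-fold range. Replicates 1 and 3 were high and replicates 5 and 6 low on that scale. With 28S scaling and in deposited units, too, replicate 1 held the highest and replicate 6 the lowest value, but after quantile normalization replicate 6 was highest and replicate 4 lowest. Within each array the desmin probe kept almost the same place, between rank 11 and rank 13 of the 175 probes. A rank needs no scaling between arrays.

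After median centring titin had a wider spread than desmin and was lowest on replicate 5. Its deposited intensities were 3.52, 0.660, 1.00, 0.699, 0.328 and 0.272 on replicates 1 to 6. The median-centred levels were 5.77, 5.46, 6.02, 5.42, 4.28 and 4.78, with a mean of 5.29 ± 0.65 (SD, n = 6) and a 3.34-fold range. Replicate 5 was the lowest with median centring, quantile normalization and 28S scaling, while replicate 6 was the lowest in deposited units. The titin probe stood at rank 15 of 175 on replicate 5 and between rank 8 and rank 11 on the others. The probe was annotated to the gene and not to one of the titin isoforms, so a change in isoform use and a change in amount cannot be told apart.

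Dmpk, the kinase, ordered the 6 arrays exactly as desmin did after median centring. Its deposited intensities were 0.250, 0.0419, 0.0464, 0.0360, 0.0262 and 0.0142, between 9.36 and 25.7 times the noise bound. Its median-centred levels were 1.95, 1.48, 1.59, 1.14, 0.63 and 0.52 on replicates 1 to 6, a mean of 1.22 ± 0.56 (SD, n = 6) and a 2.69-fold range. From high to low both genes ran through replicates 1, 3, 2, 4, 5 and 6 on this scale. Replicate 1 stayed highest and replicate 6 lowest for Dmpk under all 4 scalings plotted. Its probe moved from rank 38 on replicate 1 to rank 72 on replicate 6. A rank step does not stand for the same change in intensity throughout the table, so this path is not set against that of desmin.

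Calpastatin was high on replicate 3. Its deposited intensities were 0.1003, 0.0185, 0.0318, 0.0125, 0.0136 and 0.00940 on replicates 1 to 6, between 4.86 and 12.2 times the bound. The median-centred levels were 0.63, 0.30, 1.05, -0.38, -0.31 and -0.075, with a mean of 0.20 ± 0.56 (SD, n = 6) and a 2.69-fold range. Replicates 1, 2 and 3 lay above the median probe and replicates 4, 5 and 6 below it. Replicate 3 was highest and replicate 4 lowest also after quantile normalization, whereas replicate 1 was highest with the 2 other scalings. In deposited units replicate 6 was then lowest, and with 28S scaling replicate 5. The rank of the probe ran from 54 on replicate 3 to 105 on replicate 4.

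Capn3, the protease anchored on titin, was measured at the level of noise. Its deposited intensities were 0.00580, 0.00290, 0.00240, 0.00240, 0.00180 and 0.00110 on replicates 1 to 6. Relative to the noise bound they were 0.403, 1.38, 0.923, 1.71, 0.643 and 1.00, so 2 of 6 arrays exceeded it. The median-centred mean was -2.95 ± 0.41 (SD, n = 6), and the range was 2.16-fold, or 2.00-fold with the arrays at or under the bound set to it. Values this close to noise do not show how much Capn3 transcript was present, and the small SD is not read as an even level.

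**Figure D2:**
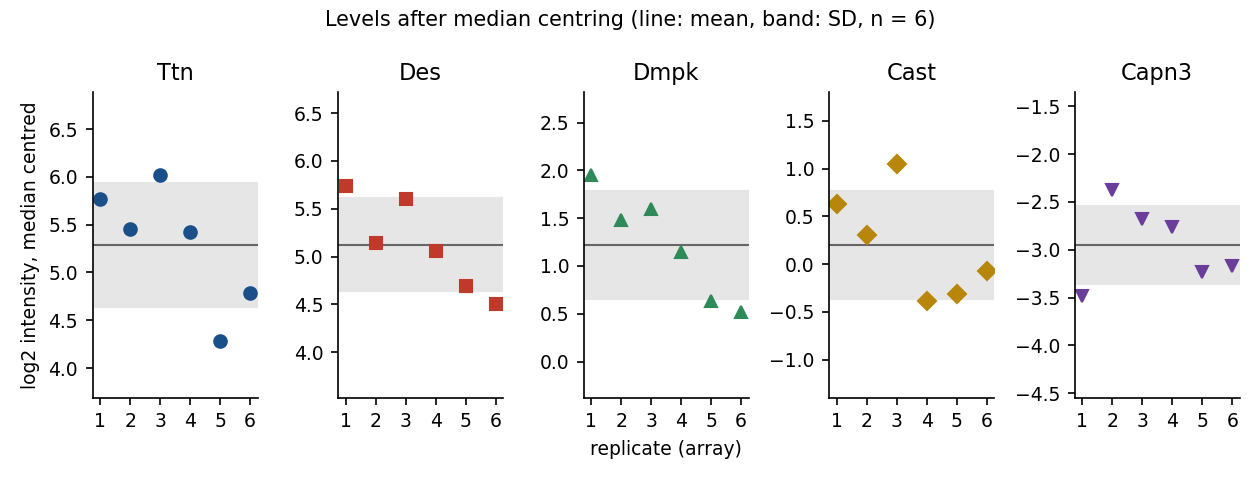
Median-centred log2 intensity of each gene on the 6 arrays, one panel per gene, all with the same span; the line is the mean and the band the SD (n = 6). Des and Dmpk trace the same order of arrays, Ttn is lowest on replicate 5, Cast is highest on replicate 3, and Capn3 is lowest on replicate 1, where its intensity was 0.403 times the noise bound.

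None of the 5 genes stood at an extreme of the table in its spread. Their SDs ran from 0.41 to 0.65 with a median of 0.56, against a median of 0.64 for all 162 genes above 0 on all arrays and 0.57 for the 123 above the noise bound. Desmin had rank 44 of 162 from the smallest SD, Dmpk rank 67, calpastatin rank 68 and titin rank 83.

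How wide the spread came out depended on the scaling. The SDs of Ttn, Des, Dmpk and Cast were 1.32, 1.32, 1.39 and 1.25 in deposited units. With 28S scaling they were 1.14, 1.05, 1.11 and 0.94. Quantile normalization gave 0.45 for Ttn, 0.085 for Des, 0.63 for Dmpk and 0.61 for Cast. That method gives probes of equal rank an equal value, and the desmin rank moved by only 2 places.

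**Figure D3:**
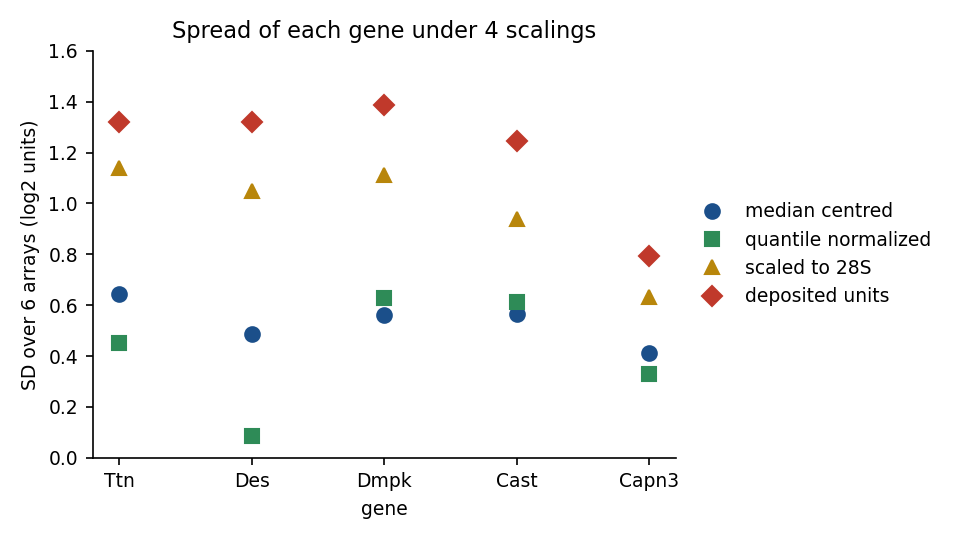
SD over the 6 arrays (log2 units) of each gene under 4 scalings. For all 5 genes the SD is largest in deposited units and second largest after scaling to 28S; Des falls to 0.085 after quantile normalization.

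The ratio of 2 genes on the same array does not change when an array is multiplied by any factor, so it avoids the choice among median centring, 28S scaling and deposited units. Its size depends on the probes and is not read, only its change between arrays. The ratio of desmin to Dmpk was the most even among the 5 genes. Relative to its mean it was 0.923, 0.845, 1.08, 1.01, 1.11 and 1.05 on replicates 1 to 6, a 1.32-fold range, while in deposited units Des alone ranged 15.4-fold and Dmpk 17.6-fold. The SD of the log2 ratio was 0.15. Of the 13041 pairs among the 162 genes, 0.169% had a smaller one, and the median pair had 0.93. Of the 7503 pairs of genes above the noise bound on all arrays, as Des and Dmpk are, 0.213% had a smaller one. The median of those pairs was 0.73.

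Titin held to desmin on 5 of the 6 arrays. The ratio of titin to desmin, relative to its mean, was 0.910, 1.11, 1.19, 1.14, 0.671 and 1.08. Replicate 5 was low and the others lay within a narrow band. The SD of the log2 ratio was 0.31, and 0.15 without replicate 5. The ratio of titin to Dmpk was also lowest on replicate 5, at 0.747 of its mean, and highest on replicate 3, at 1.28, with an SD of 0.30. On replicate 5 titin was thus low against both genes, and the ratio of desmin to Dmpk was 1.11 there.

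Calpastatin departed from titin, desmin and Dmpk most on replicate 4. The ratio of desmin to calpastatin was 1.14, 0.944, 0.777, 1.44, 1.06 and 0.787 of its mean. Calpastatin, the inhibitor, was thus low against desmin on replicate 4 and high on replicates 3 and 6. Titin and Dmpk gave 1.64 and 1.42 over calpastatin on replicate 4, which was the highest array for both ratios. On replicate 5 the ratio of titin to calpastatin was lowest, at 0.710 of its mean. The SDs of the log2 ratios of calpastatin with Ttn, Des and Dmpk were 0.41, 0.34 and 0.40, and that with Ttn was 0.23 without replicate 4.

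Ratios of desmin and Dmpk to Capn3 were set apart by replicate 1, the array on which Capn3 lay lowest against the bound. The ratio of desmin to Capn3 was 2.21 times its mean there and between 0.678 and 1.16 on the others. The SD of its log2 was 0.62, and 0.29 without replicate 1. For Dmpk and Capn3 it was 0.65, and 0.22 without replicate 1. Ratios of Capn3 to titin and calpastatin stayed wider, with SDs of 0.63 and 0.65, and 0.44 and 0.51 without replicate 1. With the 4 dim values set to the bound, the SDs with Des and Dmpk were 0.31 and 0.34.

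**Figure D4:**
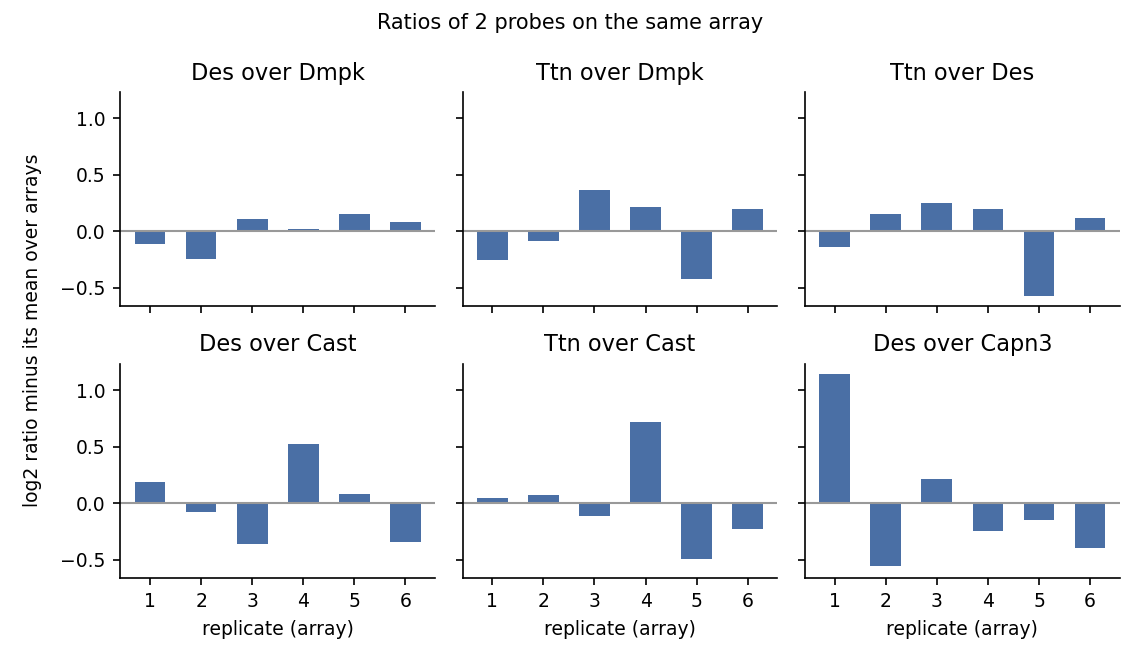
Log2 ratio of 2 probes on the same array minus its mean over the 6 arrays, for 6 of the 10 pairs on 1 common axis. Des over Dmpk stays between -0.24 and 0.15; Ttn is low against Des and Dmpk on replicate 5, Cast is low against Des and Ttn on replicate 4, and Des over Capn3 is high on replicate 1.

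**Figure D5:**
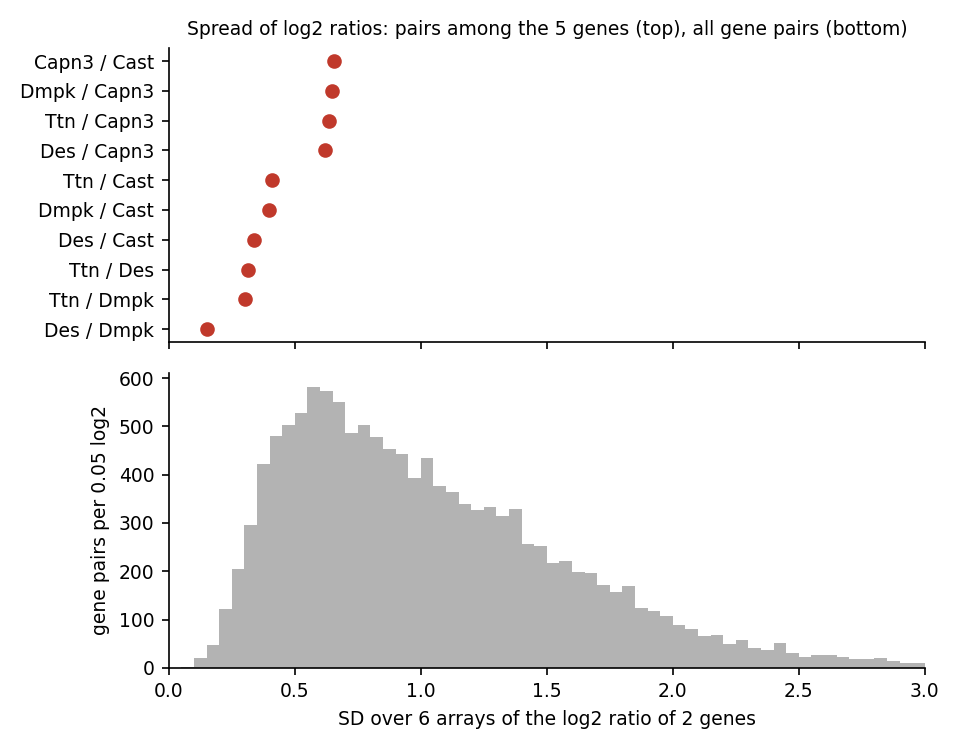
SD over 6 arrays of the log2 ratio for the 10 pairs among the 5 genes (top) and for all 13041 gene pairs (bottom, in bins of 0.05; 190 pairs with an SD of 3 or more lie outside the axis). Des with Dmpk has the smallest SD, 0.15, and the 4 pairs with Capn3 have the largest, from 0.62 to 0.65.

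The correlations over the 6 arrays were computed from the same median-centred values as the ratios, so they are not separate evidence. On that scale no pair passed the test over the whole table. By the exact permutation test, 0 of the 10 pairs passed an adjusted p of 0.05 by Pearson's r or by Spearman's rho, as did 0% of all 13041 pairs. At an unadjusted p of 0.05, 3 of the 10 passed by either measure, all with positive values. By Pearson's r 20.4% of all pairs did so with either sign and 11.7% with a positive one. By Spearman's rho those shares were 13.7% and 7.29%. The smallest p that the 720 pairings can give is 0.00139 for r and 0.00278 for rho.

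Desmin and Dmpk were the most closely correlated of the 10 pairs. Their r of 0.97 had an exact permutation p of 0.00417 (adjusted 0.133), and their rho of 1.00 one of 0.00278 (adjusted 0.141). Leaving out replicates 1 and 6, farthest from the median of Des, gave r = 0.91, and leaving out 5 and 6, farthest for Dmpk, gave 0.89. After quantile normalization, where desmin hardly varied, r was -0.29.

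Titin came next. Its r was 0.89 with Des and 0.88 with Dmpk, and the exact permutation p of both was 0.0236 (adjusted 0.188). Its rho was 0.89 with either gene, at an exact permutation p of 0.0333 (adjusted 0.244). Leaving out replicates 5 and 6 gave r = 0.86 with Des and 0.60 with Dmpk, and leaving out 1 and 6 gave 0.95 with Des. After quantile normalization r was 0.25 with Des and 0.22 with Dmpk.

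Calpastatin reached r = 0.80 with Des, 0.78 with Ttn and 0.75 with Dmpk, at exact permutation p-values of 0.0625, 0.0653 and 0.0986 (adjusted 0.270, 0.276 and 0.330). Its rho was 0.71, 0.83 and 0.71, at exact permutation p-values of 0.136, 0.0583 and 0.136 (adjusted 0.419, 0.298 and 0.419). Without the 2 arrays farthest from the median of the other gene, r was 0.89, 0.91 and 0.74, but without replicates 1 and 3, the farthest by calpastatin itself, it was 0.29, 0.41 and 0.52. With 1 replicate left out, r ran from 0.75 to 0.90 with Des, 0.65 to 0.97 with Ttn and 0.68 to 0.84 with Dmpk. The size of r thus depended on which arrays were left out. Leaving out the arrays farthest by calpastatin also narrows its range, so the lower values cannot show that the relation rested on them. After quantile normalization of all 6 arrays r was 0.25 with Des, 0.38 with Ttn and 0.75 with Dmpk.

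Capn3 had r between 0.061 and 0.35 with the other 4 genes, with exact permutation p-values from 0.482 to 0.878 (adjusted 0.704 to 0.939), and its noise level limits these values. Its rho was 0.31 with Ttn, 0.029 with Des and with Dmpk, and 0.14 with Cast, with exact permutation p-values from 0.564 to 1.00 (adjusted 0.786 to 1.00). Without the 2 arrays farthest from the median of Ttn, Des or Dmpk, r was -0.31, 0.62 and -0.67, and for Cast it was 0.64. Without replicates 1 and 2, farthest by Capn3 itself, it was 0.96, 0.91, 0.95 and 0.57 in the same order. The handling of dim values also changed r. With values at or under the noise bound set to it, r was 0.62, 0.85, 0.89 and 0.62 in that order. The adjusted exact permutation p-values were then from 0.177 to 0.484. With the noise bound added to every value, r was 0.54, 0.66, 0.73 and 0.72. With 28S scaling, 3 of the 10 pairs passed the adjusted threshold by r (Des with Dmpk, Ttn with Des, and Ttn with Dmpk), as did 8.71% of the 12880 pairs that could be tested on that scale.

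The median-centred levels were also set against the overall brightness of the array, its log2 median intensity, a comparison added after the data had been seen. Des and Dmpk had r = 0.71 and 0.72, at exact permutation p-values of 0.0819 and 0.0778 (adjusted over 162 genes, 0.320 for both). Their rho was 0.49, at an exact permutation p of 0.356 (adjusted 0.693). Leaving out replicates 1 and 6, the brightest and the dimmest array, gave r = -0.73 and -0.93, so the sign of r depended on those arrays. The medians of the remaining arrays ran only from 0.015 to 0.0169. The same median is subtracted from each level, so level and brightness are not independent. These values without replicates 1 and 6 are therefore not read as a trait of a gene.

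Titin and calpastatin had r = 0.40 and 0.36 with brightness, at exact permutation p-values of 0.467 and 0.532 (adjusted 0.637 and 0.682). Their rho was 0.086 and -0.029, at exact permutation p-values of 0.919 and 1.00 (adjusted 0.949 and 1.00). Capn3 had r = -0.52 and rho = -0.66, at exact permutation p-values of 0.249 and 0.175 (adjusted 0.450 and 0.693). Without replicates 1 and 6, r was -0.77 for Ttn, -0.73 for Cast and -0.94 for Capn3. The part of brightness in the correlations between the genes was not tested.

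Of the lists of related muscle genes, only that of the thick and thin filament had further probes, for 4 of its 19 genes, the myosin heavy chains Myh7 of slow fibres and Myh2, Myh1 and Myh4 of fast fibres. The lists of sarcomere scaffold, intermediate filaments, calpains and other proteases, and calcium handling held no measured gene beyond the 5. Desmin kept an even ratio to Myh2, with an SD of the log2 ratio of 0.21, and to Myh1, with 0.23. Its SD was 0.30 against Myh7 and 0.31 against Myh4. Dmpk had 0.17 against Myh1, 0.20 against Myh2, 0.29 against Myh7 and 0.39 against Myh4. Titin lay between 0.36 and 0.42 against the 4 myosins, and the inhibitor calpastatin between 0.45 and 0.63. By Pearson's r, 0 of the 20 pairs of one of the 5 genes with a myosin passed the adjusted threshold and 9 passed at an unadjusted exact permutation p of 0.05, all 4 of Des, all 4 of Dmpk and Ttn with Myh4. Over all pairs that share was 20.4% with either sign and 11.7% with a positive one. By Spearman's rho, 0 of the 20 passed after adjustment and 6 before it. Over all pairs the unadjusted share by rho was 13.7% with either sign and 7.29% with a positive one. Dmpk and Myh1 had r = 0.96 and rho = 1.00, at exact permutation p-values of 0.00139 and 0.00278 (adjusted 0.122 and 0.141). Leaving out replicates 5 and 6 gave r = 0.96 again.

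The gene closest to desmin, to Dmpk and to titin by the SD of the log2 ratio, out of 122 candidates each, was Igf2r, the receptor that takes up the growth factor IGF2 and carries lysosomal enzymes. Its deposited intensities were 0.137, 0.0246, 0.0305, 0.0228, 0.0162 and 0.00860 on replicates 1 to 6. The SD of the log2 ratio was 0.11 with Des, 0.091 with Dmpk and 0.26 with Ttn. The ratio of Dmpk to Igf2r ranged 1.20-fold over the 6 arrays and that of Des to Igf2r 1.25-fold. Desmin was next closest to Dmpk and then to Cpt1b, the carnitine transferase of muscle mitochondria (SD 0.16). Dmpk was next closest to Jund, an AP-1 subunit, and then to Des, both with an SD of 0.15. Titin was next closest to Dmpk and Des.

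Calpastatin shared its neighbour Des with titin and Dmpk. Pcna, the sliding clamp of DNA replication, was closest with an SD of 0.24 and a 1.49-fold range of the ratio, followed by the cyclin Ccnd1 (0.31) and Des (0.34). Without replicate 4 none of these 3 remained among its 3 closest, which were then Aldoa, Csk and Ttn. For Capn3, out of 123 candidates, the laminin chain Lama5 (0.28), the lysosomal membrane protein gene Scarb2 (0.33) and the retinoblastoma gene Rb1 (0.36) were closest, and 0 of them remained without replicate 1. Igf2r stayed among the 3 closest of Ttn, Des and Dmpk with each replicate left out in turn, whereas the other neighbours of these genes changed. Without replicate 4 Pcna was among the 3 closest of Ttn, of Des and of Dmpk.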

How the data were processed

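RNA of 6 soleus samples was measured on expression arrays. The deposited values were linear intensities, 1 per probe and array; how they were scanned, background-corrected and normalized is not given in the sources used here. Gene symbols came from the annotation of the platform. Intensities were converted to log2 with no pseudocount, and the median over the 175 probes above 0 on all 6 arrays was subtracted from each array. Quantile normalization, scaling to 28S ribosomal RNA, uncentred values, centring on the 75th percentile, different handling of dim probes and leaving out each array were tried as alternatives. Pairs of genes were compared by the SD of their log2 ratio and by Pearson's r and Spearman's rho, with exact two-sided permutation tests over all 720 pairings of the arrays, adjusted over 13041 pairs by Benjamini and Hochberg. The pair test was tested on simulated data. For each gene studied, the text names the 3 genes, among those above the noise bound on all arrays, with the smallest SD of the log2 ratio. The 5 genes and the lists were chosen with earlier results of these data known. The number of arrays limits the precision. Python 3.11.15, numpy 2.4.6, pandas 2.3.3 and matplotlib 3.10.9 were used.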

Additional observations from a re-analysis of the deposited data

Results flagged for a closer look

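Of 15 sets of 6 values, 5 levels and 10 log2 ratios, 1 held a sample whose gap to its neighbour, as a share of the whole range, exceeded Dixon's critical value, and chance would give about 0.75 for normal values. It was the log2 ratio of Dmpk and Capn3, with a gap of 0.665 of the range. Replicate 1 lay 1.26 above the mean ratio there. Capn3 was at 0.403 times the noise bound on that array.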

How the results depend on the processing

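The number of pairs among the 5 genes that passed the adjusted threshold was 0 under median centring and under 12 of the 13 alternatives, including each replicate left out (0 to 0), and 3 after scaling to 28S. The correlation of Des and Dmpk turned to -0.29 after quantile normalization, where Ttn had r = 0.25 with Des and 0.22 with Dmpk. On that scale Cast had 0.25 with Des, 0.38 with Ttn and 0.75 with Dmpk. Correlations of Capn3 with Des, Dmpk and Cast changed sign when 1 replicate was left out. They ran from -0.17 to 0.73 with Des, from -0.042 to 0.91 with Dmpk and from -0.17 to 0.53 with Cast. That of Capn3 with Ttn kept its sign and ran from 0.14 to 0.80. The correlation of Des and Dmpk ran from 0.95 to 0.99 with 1 replicate left out, that of Ttn and Des from 0.84 to 0.95. The SD of the log2 ratio of Des and Dmpk ran from 0.10 to 0.17 with 1 replicate left out and was 0.66 after quantile normalization, where Ttn with Dmpk had 0.69. Quantile values follow ranks, and Des kept ranks 11 to 13. The pair of Ttn and Dmpk holds no Des, and these 2 genes had SDs of 0.45 and 0.63 on that scale. The cause of the changes with quantile normalization, with 28S scaling and with Capn3 was not tested. No paired analysis was possible because the samples form 1 group. The noise bound limits what Capn3 can show.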
